A study of Homo sapiens with 2 samples.

Results

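The genes of the integrated stress response and the tRNA synthetases were followed in 2 single-cell libraries of human serotonin neurons (SNs). The 38 genes were taken by symbol from the 61487 genes of the count tables, and each symbol was present once in both libraries. They fell into 11 stress factors (ATF3 to GDF15), 13 genes of amino acid synthesis and transport (ASNS to SLC7A1) and 14 genes of tRNA charging, namely 13 cytosolic aminoacyl-tRNA synthetases and the tRNA exporter XPOT.

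In the integrated stress response, kinases that sense amino acid shortage, unfolded proteins, heme shortage or double-stranded RNA phosphorylate the translation factor eIF2. General translation then slows while the transcription factor ATF4 is made, and ATF4 raises the transcription of CHOP (DDIT3), of enzymes and transporters that supply amino acids, and of many cytosolic synthetases. Neurons use the pathway in protein homeostasis and in the response to injury, and prolonged activity with CHOP is linked to cell death.

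The study differentiated WA09 (H9) human embryonic stem cells, an established line, towards SNs and asked whether the forkhead factor FOXA2 is needed for them. Both libraries came from lines with EGFP knocked in at TPH2, the gene of the rate-limiting enzyme of neuronal serotonin synthesis, and held EGFP-positive cells sorted at day 42. The library labelled WT had no other edit. The library labelled FKO came from a line that also carried a FOXA2 knockout, built on 1 knockout clone in which an insertion or deletion gave a premature stop. The study used more than 1 dose of purmorphamine, a Hedgehog pathway agonist. For a set of stained day 42 cells, the study paired the lower dose with WT and the higher dose with FKO. The dose of each library is not given in the sources used here, so genotype and dose cannot be told apart. Each group was 1 library of a droplet 3' kit (v3), so no difference between the groups had a replicate check and no test between them was possible. Intervals below (95%, exact) reflect the error of counting alone.

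Of UMIs (unique molecular identifiers, each standing for 1 captured transcript), the library labelled WT had 123064653 over 11052 barcodes, and the library labelled FKO had 70588747 over 8806. After filters on UMIs, genes, mitochondrial share and doublets, 5721 cells (51.8%) and 6980 cells (79.3%) were kept, with 75898288 and 58063063 UMIs. A kept cell had a median of 12442 UMIs in the library labelled WT against 6925.5 in the library labelled FKO, and the median mitochondrial share was 7.84% and 5.32%. Of barcodes past the UMI and gene minimum, 39.8% and 11.8% lay above the mitochondrial limit of 10%. The libraries shared 21 barcodes, 5 of them among kept cells.

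The targeted gene went against the label. FOXA2 (ENSG00000125798) had 312 UMIs in the library labelled WT, or 4.11 UMIs per 1000000 (CPM; 3.67 to 4.59), and 1295 UMIs in the library labelled FKO, or 22.3 CPM (21.1 to 23.6), a log2 ratio of 2.44 (2.26 to 2.62). Where the 3' tags lie relative to the edit was not examined, and UMIs do not show whether protein was made. The groups are therefore called the library labelled WT and the library labelled FKO, and every direction below is between the libraries so labelled. Whether the labels were exchanged was not tested.

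Markers of the sorted cells were present in both. TPH2 stood at 197 CPM in the library labelled WT against 162 CPM in the library labelled FKO, and the serotonergic factor FEV at 1583 and 909 CPM. The 11 serotonergic genes summed to 2993 and 2534 CPM, and the 8 pan-neuronal genes to 8841 and 12903 CPM, with STMN2 holding the most UMIs. Mesenchymal genes (6 genes) summed to 37.4 and 229 CPM, with LUM and COL1A2 holding the most UMIs, and the 5 astroglial genes to 11.4 and 47.3 CPM, with SLC1A3 and S100B. Neural progenitor genes (8 genes, SOX2 highest) summed to 272 and 225 CPM, floor plate genes (7 genes, SPON1 highest) to 50.9 and 56.4 CPM, and cycling genes (8 genes, CENPF highest) to 63.6 and 85.4 CPM. PDGFRA had 5 and 83 UMIs, and GFAP had 3 and 12.

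Genes as a whole were not centred on a ratio of 1. The log2 ratio of FKO over WT had a median of 0.47 over the 9669 genes that reached 10 CPM in at least 1 library, and 72.5% of them lay above 0. Ratios of single genes are therefore given as measured and also relative to this median, and a gene counts as above or below when it lay more than 1.5-fold from it (0.58 on the log2 scale). Of the 38 genes, 31 reached 10 CPM, and 23 of these had a log2 ratio above 0 while 10 lay above the median of all genes. By that rule 1 of the 31 was above, beside 17.9% of all genes, and 6 of the 31 were below, beside 23.3% of all genes. The share below was thus near that of genes in general, and the share above was lower. In pooled counts, fewer cells that use a gene and less RNA per cell cannot be told apart.

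Of the 11 stress factors, 7 reached 10 CPM, with a median relative log2 ratio of -0.16, and none lay above. At a minimum of 50 CPM only ATF4 was left of them, at 0.0613, and with at most 5% mitochondrial UMIs the median was -1.83. Their UMIs summed to 208 CPM in the library labelled WT against 243 CPM in the library labelled FKO, which gave a log2 ratio of 0.23 (0.19 to 0.26). DDIT3, which encodes the pro-apoptotic factor CHOP, was the only gene of these 7 below: 2946 UMIs (38.8 CPM) against 1700 UMIs (29.3 CPM), a log2 ratio of -0.41 (-0.49 to -0.32) and a relative ratio of -0.88. ATF4, the transcription factor at the centre of the response, had 5372 UMIs (70.8 CPM) and 5316 UMIs (91.6 CPM), a log2 ratio of 0.37 (0.32 to 0.43), close to the median of all genes at a relative -0.10. Its activity is set largely by translation, which UMIs do not measure. TRIB3, a pseudokinase that ATF4 and CHOP induce, had 714 and 725 UMIs (9.41 and 12.5 CPM), with a relative ratio of -0.06. DDIT4, an inhibitor of mTORC1 signalling, stood at 31.6 and 31.9 CPM (relative -0.46), and SESN2, a stress-induced leucine sensor, at 7.46 and 15.4 CPM (relative 0.57), just inside the limit; with doublets kept it lay above, at 0.61, and in cells with at most 5% mitochondrial UMIs below the median, at -0.48. SESN2 and TRIB3 reached 10 CPM only in the library labelled FKO, where their CPM was higher. CHAC1, which degrades glutathione, and ATF5 lay at relative ratios of -0.16 and -0.20. Below 10 CPM in both were ATF3 (376 and 467 UMIs), CEBPB (613 and 529), HRK (242 and 191) and GDF15 (180 and 238).

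The 13 genes of amino acid synthesis and transport summed to 282 CPM in the library labelled WT against 316 CPM in the library labelled FKO, and the 10 that reached 10 CPM had a median relative log2 ratio of -0.41 (-1.39 with at most 5% mitochondrial UMIs). Their 8 synthesis enzymes had the lowest median of any subgroup, -0.48 relative to all genes over the 7 that reached 10 CPM. Of these 7, 3 lay below, beside 23.3% of all genes. PYCR1, which makes proline in mitochondria, had 1981 UMIs (26.1 CPM) in the library labelled WT against 1066 UMIs (18.4 CPM) in the library labelled FKO, which gave a log2 ratio of -0.51 (-0.62 to -0.40) and a relative ratio of -0.98. SHMT2, the mitochondrial serine hydroxymethyltransferase, had 1333 UMIs (17.6 CPM) and 845 UMIs (14.6 CPM), a log2 ratio of -0.27 (-0.40 to -0.15) and a relative ratio of -0.74. PHGDH, the entry enzyme of serine synthesis, had 1929 UMIs (25.4 CPM) and 1338 UMIs (23.0 CPM), a log2 ratio of -0.14 (-0.24 to -0.04) and a relative ratio of -0.61. The place of PHGDH below the limit was lost with doublets kept (-0.57), with up to 20% mitochondrial UMIs (-0.50) and in cells of 5% to 10% (-0.21), while PYCR1 and SHMT2 were past it in each of these. In absolute terms the values of the 3 enzymes differed by less than 1.5-fold between the libraries, and they stand apart only against the general shift. PSAT1 and PSPH, the next steps of the serine pathway, lay at relative ratios of -0.35 and -0.48. The nearest to the median was ALDH18A1, an early enzyme of proline synthesis, with 766 UMIs (10.1 CPM) and 894 UMIs (15.4 CPM), a log2 ratio of 0.61 (0.47 to 0.75) and a relative ratio of 0.14. MTHFD2, of mitochondrial folate metabolism, stood at 25.3 and 43.5 CPM (relative 0.31), on the other side from SHMT2. ASNS, the asparagine synthetase and a textbook ATF4 target, had only 245 and 370 UMIs (3.23 and 6.37 CPM).

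The 5 transporters pointed in different directions. SLC7A1, a carrier of cationic amino acids, was the only gene above among the 31 that reached 10 CPM: 1172 UMIs (15.4 CPM) in the library labelled WT against 2063 UMIs (35.5 CPM) in the library labelled FKO, which gave a log2 ratio of 1.20 (1.10 to 1.31) and a relative ratio of 0.73 (0.45, inside the limit, with at most 5% mitochondrial UMIs). SLC3A2, the heavy chain shared by several amino acid exchangers, lay below: 7730 UMIs (102 CPM) and 5344 UMIs (92.0 CPM), a log2 ratio of -0.15 (-0.20 to -0.10) and a relative ratio of -0.62 (inside the limit in cells of 5% to 10% mitochondrial UMIs, at -0.56, and at a minimum of 50 CPM, at -0.46). Its partner SLC7A5, the light chain of the large neutral amino acid carrier, had 879 UMIs (11.6 CPM) and 1029 UMIs (17.7 CPM), a log2 ratio of 0.61 (0.48 to 0.75) and a relative ratio of 0.14. The heavy chain and this light chain therefore differed in direction. SLC7A11, the cystine carrier, had 211 and 346 UMIs, and the glutamine carrier SLC1A5 had 573 and 377. Both stayed below 10 CPM and were not counted, with relative ratios of 0.63 and -0.69 that lay past the limit.

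All 14 genes of tRNA charging reached 10 CPM, and 13 of them lay within 1.5-fold of the median of all genes. Their median relative log2 ratio was -0.10, and 0.0548, on the other side, in cells of 5000 to 10000 UMIs. Together they had 1112 CPM in the library labelled WT against 1273 CPM in the library labelled FKO, which gave a log2 ratio of 0.20 (0.18 to 0.21). The seryl-tRNA synthetase SARS1 was the exception, at 15873 UMIs (209 CPM) and 11157 UMIs (192 CPM), a log2 ratio of -0.12 (-0.16 to -0.09) and a relative ratio of -0.60, just past the limit. It lay inside with up to 20% mitochondrial UMIs (-0.57), in cells of 5% to 10% (-0.56), with cells weighted equally (-0.56), in cells of 5000 to 10000 UMIs (-0.49) and at a minimum of 50 CPM (-0.43). NARS1, for asparagine, lay just inside it, with 145 and 139 CPM and a relative ratio of -0.54. MARS1, for methionine, had 2919 UMIs (38.5 CPM) and 3101 UMIs (53.4 CPM), a log2 ratio of 0.47 (0.40 to 0.55), and CARS1, for cysteine, had 3379 UMIs (44.5 CPM) and 3494 UMIs (60.2 CPM), a log2 ratio of 0.43 (0.37 to 0.50). These sat nearest to the median, at relative ratios of 0.00058 and -0.04. The highest relative ratios were 0.30 in AARS1, for alanine, and 0.28 in XPOT.

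**Figure D1:**
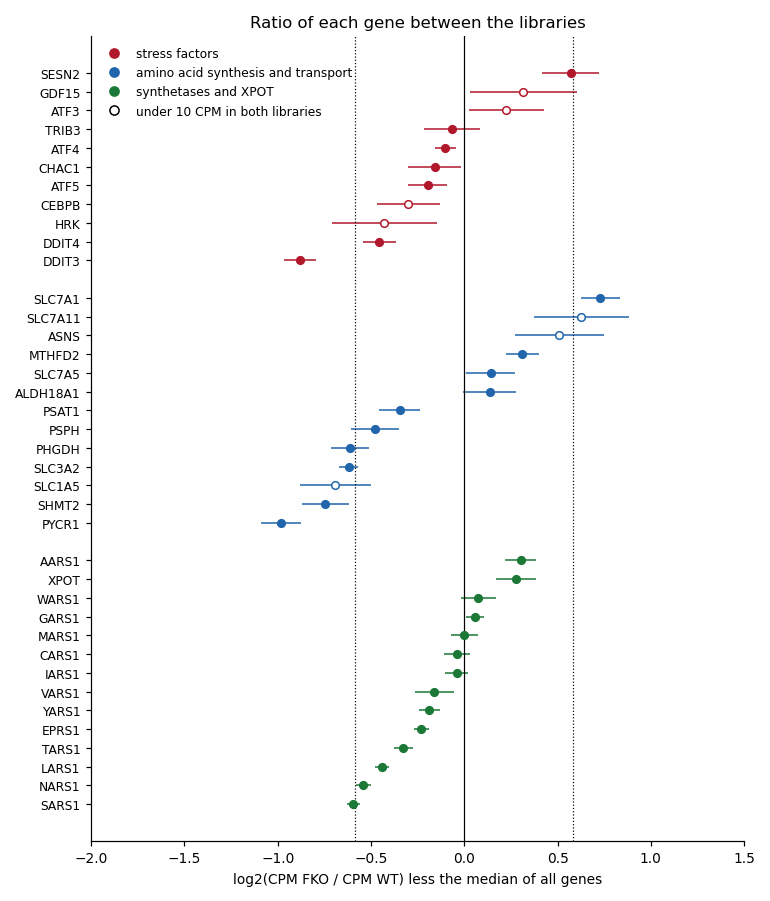
Log2 ratio of CPM in the library labelled FKO over the library labelled WT, less the median of all genes, for each of the 38 genes; bars are exact 95% counting intervals and dotted lines mark 1.5-fold. DDIT3 (-0.88) and PYCR1 (-0.98) lie farthest below, SLC7A1 (0.73) farthest above among filled points, and the synthetases run from -0.60 to 0.30.

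ATF4 and CHOP bind DNA with C/EBP partners at composite elements whose core can be written TGATGNAA, so the 300 bases around the start sites (250 before to 50 after, RefSeq, GRCh38.p14) were searched for these letters on both strands. Promoters were on hand for 31 of the 38 genes, all but PSPH, SHMT2, PYCR1, SLC7A11, LARS1, YARS1 and VARS1. The letters stood in 12 of the 31 (38.7%), beside 3.62% of all 35116 promoters. They were in 3 of 11 stress factors (ATF3, CHAC1 and HRK), in 3 of 9 amino acid genes (ASNS, SLC3A2 and SLC7A1) and in 6 of 11 synthetase genes (AARS1, CARS1, IARS1, MARS1, NARS1 and TARS1). Of 9 other cytosolic synthetases and partners 0 held them, and of 15 sensors and eIF2 factors 0. Among 14 further ATF4 or CHOP targets 2 did, among 11 other amino acid transporters 2, among 6 one-carbon and serine genes 1, among 14 mitochondrial synthetases 1 and among 20 genes of the unfolded protein response 1. Of 9 heat shock, 8 immediate early and 7 p53 genes 0 did. Shown are SLC3A2 (chr11:62881449-62881748, plus strand), IARS1 (chr9:92293648-92293947, minus strand) and TARS1 (chr5:33440715-33441014, plus strand), chosen after their values were seen because their CPM was higher in cells rich in stress factors in both libraries (below). Capitals mark the match, in each case to the reverse complement. A match describes the sequence and does not show binding. The lists were chosen with earlier results of these data known, so their shares are a description only.
SLC3A2: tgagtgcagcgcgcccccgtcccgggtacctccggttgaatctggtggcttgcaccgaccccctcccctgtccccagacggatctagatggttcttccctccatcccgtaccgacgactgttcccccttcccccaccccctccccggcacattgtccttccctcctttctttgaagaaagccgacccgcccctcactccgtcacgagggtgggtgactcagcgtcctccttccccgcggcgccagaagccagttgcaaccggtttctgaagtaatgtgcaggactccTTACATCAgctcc
IARS1: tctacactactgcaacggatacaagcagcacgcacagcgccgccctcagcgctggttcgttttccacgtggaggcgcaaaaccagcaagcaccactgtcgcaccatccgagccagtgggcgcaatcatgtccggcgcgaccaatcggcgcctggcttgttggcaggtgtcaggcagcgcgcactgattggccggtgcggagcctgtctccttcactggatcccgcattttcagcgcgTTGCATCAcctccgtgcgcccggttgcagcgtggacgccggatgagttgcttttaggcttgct
TARS1: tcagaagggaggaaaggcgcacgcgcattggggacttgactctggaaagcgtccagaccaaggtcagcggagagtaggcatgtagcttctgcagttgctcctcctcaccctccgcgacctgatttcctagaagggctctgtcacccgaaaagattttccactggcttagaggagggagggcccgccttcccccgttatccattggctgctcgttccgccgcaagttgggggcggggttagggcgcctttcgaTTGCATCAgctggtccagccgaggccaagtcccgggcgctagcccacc

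Genes of the same pathway outside the 38 were compared in the same way. Of all genes, 23.3% lay below and 17.9% above, and the counts of this and the next paragraph stand beside these shares. Of 17 sensors and eIF2 factors, 16 reached 10 CPM, with a median relative ratio of -0.37. Of these 16, 4 lay below and 0 above, and the count below was near the share of all genes. The lowest were EIF2S2, the beta subunit of eIF2 (224 and 165 CPM, relative -0.92), and EIF2B2, a subunit of its exchange factor (30.3 and 23.5 CPM, relative -0.84). The highest were the heme-regulated kinase EIF2AK1 (75.6 and 133 CPM, relative 0.34) and the endoplasmic reticulum kinase EIF2AK3 (7.13 and 12.2 CPM, relative 0.30). EIF2AK3 reached 10 CPM only in the library labelled FKO, where it was higher. Of 19 feedback genes and further ATF4 or CHOP targets, 11 reached 10 CPM, with a median of -0.04, and 1 lay below and 2 above. The translation repressor EIF4EBP1 was lowest (124 and 72.1 CPM, relative -1.25), then PPP1R15A, which guides the eIF2 phosphatase (54.8 and 58.6 CPM, relative -0.38). VLDLR (10.2 and 25.5 CPM, relative 0.85) and KLHL24 (32.5 and 80.3 CPM, relative 0.83) were highest.

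The 10 cytosolic synthetases and partners outside the 38 genes had a lower median, -0.59, and summed to 557 and 487 CPM. Of these 10, 6 lay below (beside 23.3% of all genes) and 0 above. AIMP2 (20.1 and 11.6 CPM, relative -1.27) and EEF1E1 (111 and 65.8 CPM, relative -1.23), scaffold proteins of the multi-synthetase complex, were lowest, and QARS1 (17.5 and 23.0 CPM, relative -0.08) was highest. Of 17 mitochondrial synthetases, 9 reached 10 CPM, with a median of -0.26, 1 below (FARS2, 14.3 and 7.72 CPM, relative -1.36) and 1 above (AARS2, 4.01 and 10.5 CPM, relative 0.92). FARS2 and AARS2 each reached 10 CPM only in the library where they were higher, so the minimum itself favours such calls. CARS2 (relative -0.57) and IARS2 (relative 0.02) were next to them. Amino acid transporters outside the 38 genes went the other way: 8 of 12 reached 10 CPM, with a median of 0.58. Of these 8, 4 lay above (beside 17.9% of all genes) and 0 below. The glutamate carrier SLC1A2 (29.0 and 106 CPM, relative 1.39) and the neutral amino acid carrier SLC1A4 (14.2 and 34.0 CPM, relative 0.79) were highest, and SLC38A1 (138 and 237 CPM, relative 0.31) and SLC36A4 (34.2 and 62.4 CPM, relative 0.39) lowest. Of 9 one-carbon and serine genes, 7 reached 10 CPM, with a median of 0.05, 2 above (among them ALDH1L2, relative 0.77) and 2 below (TYMS, relative -1.08, and MTHFD2L, relative -0.63).

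Of other stress programs, heat shock, immediate early and unfolded protein response genes had more genes below than above. The p53 targets had 0 of 6 below, beside 23.3% of all genes, and 1 of 6 above, near the 17.9% of all genes. Below were 5 of 7 heat shock and 3 of 5 immediate early genes, beside 23.3% of all genes. For genes of the unfolded protein response this was 5 of 19, near the share of all genes. Of 9 heat shock genes, 7 reached 10 CPM, with a median of -0.66, 5 of them below, and HSPE1 (401 and 176 CPM, relative -1.66) and HSPA8 (965 and 662 CPM, relative -1.02) were lowest while DNAJB1 (relative 0.13) and HSPH1 (relative 0.07) were highest. Of 10 immediate early genes, 5 reached 10 CPM, with a median of -0.78, 3 of them below, from EGR1 (relative -1.20) and IER2 (relative -1.08) to FOS (relative -0.43) and JUN (relative -0.11). Of 21 chaperones and other genes of the unfolded protein response, 19 reached 10 CPM, with a median of -0.38, and 5 lay below (beside 23.3% of all genes) and 0 above, while their UMIs summed to 1964 and 2076 CPM. There, SDF2L1 (relative -1.32) and MANF (relative -1.10) were lowest and SEL1L (relative 0.53) and CANX (relative 0.08) highest. Of 8 p53 targets, 6 reached 10 CPM, with a median of 0.10 and 1 above (ZMAT3, relative 0.62), then SESN1 (relative 0.47), with BAX (relative -0.55) and PHLDA3 (relative -0.22) lowest.

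The level of the stress factors differed with the mitochondrial share of the cell. In the library labelled WT, the stress factors summed to 1067 CPM (983 to 1156) in the 76 cells with under 2.5% mitochondrial UMIs, 413 CPM (390 to 436) in the 260 cells with 2.5% to 5%, 212 CPM (207 to 217) in 2030 cells with 5% to 7.5% and 180 CPM (176 to 184) in 3354 cells with 7.5% to 10%. In the library labelled FKO the same bins gave 747 CPM (700 to 797) in 164 cells, 241 CPM (235 to 247) in 2747 cells, 217 CPM (212 to 223) in 3250 cells and 261 CPM (248 to 274) in 819 cells. Cells with the lowest mitochondrial share thus had the most stress factor UMIs in both libraries. The amino acid genes stood at 1065, 513, 289 and 252 CPM across these bins in the library labelled WT and at 688, 298, 300 and 385 CPM in the library labelled FKO. The tRNA charging genes stood at 1640, 1230, 1148 and 1073 CPM and at 1659, 1276, 1249 and 1280 CPM. The 3 groups of the library labelled FKO were thus highest under 2.5% and differed little among the other bins, other than the amino acid genes at 7.5% to 10%. GDF15, a secreted stress cytokine, stood at 77.2 CPM under 2.5% and 0.685 CPM at 7.5% to 10% in the library labelled WT, and at 80.4 and 1.40 CPM in the library labelled FKO. It had only 180 and 238 UMIs over all kept cells, in 1.07% and 0.931% of them, so few cells can set these values. Markers differed across the bins as well. From the lowest share to the highest, floor plate genes stood at 190, 121, 46.2 and 47.4 CPM in the library labelled WT and at 230, 38, 56.5 and 99.5 CPM in the library labelled FKO, and pan-neuronal genes at 6117, 7715, 8636 and 9085 CPM and at 10209, 13503, 12974 and 10523 CPM. Cycling genes stood at 131, 227, 97.5 and 29.5 CPM and at 41.4, 84.1, 75.3 and 147 CPM, and astroglial genes at 21.6, 18.2, 11.7 and 10.7 CPM and at 30.9, 20.2, 43.5 and 187 CPM. Neural progenitor genes stood at 451, 343, 280 and 260 CPM and at 457, 184, 230 and 338 CPM. Serotonergic genes stood at 2168, 2560, 2919 and 3081 CPM and at 2047, 2731, 2512 and 1880 CPM. Mesenchymal genes stood at 61.1, 91.3, 35.6 and 34.5 CPM and at 31.7, 202, 274 and 185 CPM. The p53 targets stood at 348, 196, 177 and 169 CPM and at 469, 210, 214 and 250 CPM. Like the stress factors, the floor plate genes, progenitor genes and p53 targets were highest under 2.5% in both libraries. A median cell under 2.5% had 6024 and 5305.5 UMIs. The part of depth and of these other markers in the bins was not tested.

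**Figure D2:**
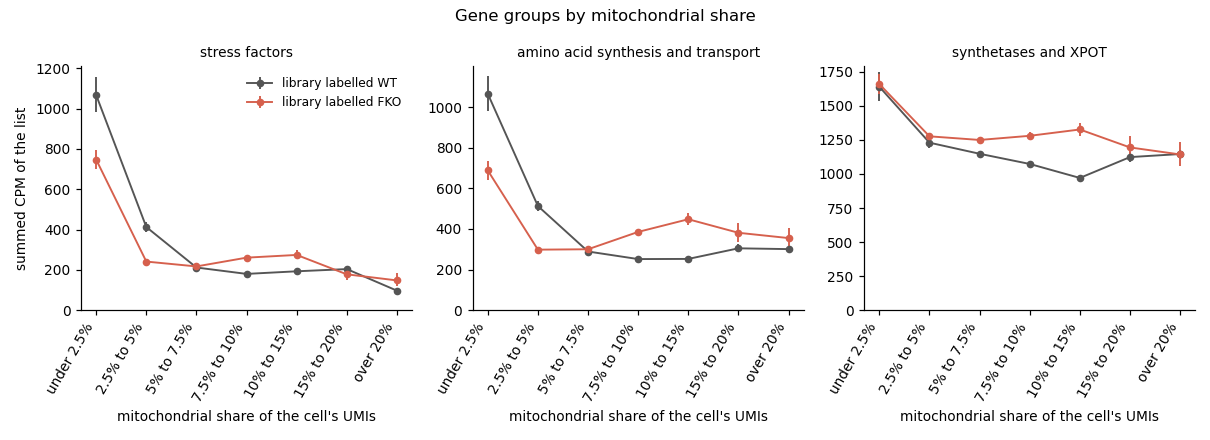
Summed CPM of the stress factors, the amino acid genes and the tRNA charging genes by mitochondrial share of the cell's UMIs, doublets removed, in the libraries labelled WT (grey) and FKO (red); bars are exact 95% Poisson intervals and lines only join bins. The stress factors stand at 1067 and 747 CPM under 2.5% and at 212 and 217 CPM at 5% to 7.5%.

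The comparison between libraries differed with the mitochondrial limit. With at most 5% mitochondrial UMIs, 336 cells of the library labelled WT stood against 2913 of the library labelled FKO. The median relative ratio was then -1.83 for the stress factors, -1.39 for the amino acid genes and -0.27 for the tRNA charging genes, and of 36 genes at 10 CPM 21 lay below (beside 26.8% of all genes) and 0 above (beside 23.6%). Within 5% to 10%, a range chosen after seeing the data, the medians were -0.07, -0.20 and -0.11, with 3 of 31 below (beside 22.3% of all genes) and 2 above (beside 17.3%). DDIT3, PYCR1, SHMT2 and SLC7A1 were past 1.5-fold in that range too, and the tRNA charging median was close to its value over all kept cells.

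Cell classes differed too. Among cells with no sign of cycling (fewer than 3 UMIs over the cycling genes), the stress factors summed to 190 CPM in 4065 cells with a TPH2 UMI and 257 CPM in 1591 cells without one in the library labelled WT, and to 217 CPM in 3646 cells and 275 CPM in 3218 cells in the library labelled FKO. Cells without a TPH2 UMI also had more floor plate (132 against 16.9 CPM, and 78.3 against 30.9 CPM), mesenchymal (99.4 against 9.98 CPM, and 440 against 56.5 CPM) and neural progenitor UMIs (325 against 236 CPM, and 284 against 154 CPM). Their median UMIs were 11239 against 12860, and 6339 against 7456.5, and the part of these markers and of depth in the class values was not tested. The tRNA charging genes were level between these classes, at 1117 and 1114 CPM and at 1270 and 1280 CPM. In cycling cells, 65 and 116 in number, the amino acid genes reached 623 and 595 CPM against 261 and 278 CPM in cells with a TPH2 UMI. PHGDH alone stood at 182 and 114 CPM in cycling cells and at 18.6 and 14.2 CPM in cells with a TPH2 UMI. In the library labelled WT, the tRNA charging genes stood at 846 CPM in cycling cells, below their level in the other classes.

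To ask whether the groups were used by the same cells, kept cells with 5000 to 10000 UMIs were each thinned to 5000 UMIs: 1252 cells of the library labelled WT against 4057 of the library labelled FKO. Across these cells the summed UMIs of the stress factors and of the amino acid genes had a Pearson r of 0.52 and 0.45 (Spearman 0.16 and 0.15). The stress factors and the tRNA charging genes had an r of 0.33 and 0.34 (Spearman 0.14 and 0.16), and the amino acid genes and the tRNA charging genes 0.35 and 0.38 (Spearman 0.14 and 0.19). The Pearson values lay above the rank values, and the part of ties in sparse counts in this was not tested. Without the cells with 6 or more UMIs over the stress factors other than ATF4, a choice made after seeing the data that also narrows the range, r was 0.34 and 0.27 for stress factors with amino acid genes and 0.17 and 0.21 for stress factors with tRNA charging genes. The cells of a library share that library and were set to like depth, so these values describe these cells only.

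The lists outside the 38 genes split by kind. With the stress factors, the feedback genes and further targets had an r of 0.44 and 0.35, while the other cytosolic synthetases had 0.01 and 0.06, the mitochondrial synthetases 0.0043 and 0.0013, the sensors and eIF2 factors 0.08 and 0.09 and the heat shock genes -0.07 and -0.0037. Immediate early genes had 0.26 and 0.15. The chaperones and other genes of the unfolded protein response had 0.07 in the library labelled WT against 0.26 in the library labelled FKO. Serotonergic genes had -0.13 and -0.14 and pan-neuronal genes -0.18 and -0.19. Mesenchymal genes had 0.01 and 0.14, mitochondrial genes -0.13 and -0.02, and cytosolic ribosomal protein genes 0.07 and 0.18. By rank the order was not the same: the feedback genes and further targets had a Spearman value of 0.09 and 0.11, immediate early genes 0.16 and 0.05, the other cytosolic synthetases -0.02 and 0.02, and astroglial genes 0.11 and 0.03. Values this close to 0 in sparse counts are no finding in themselves.

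Of the 38 genes, 26 had at least 0.05 UMIs per thinned cell in both libraries and were paired. Over the 325 pairs the median r was 0.05 in the library labelled WT against 0.04 in the library labelled FKO, and 66 and 42 pairs passed 0.1. PHGDH with MTHFD2 was the highest pair in both, at 0.35 and 0.30. PHGDH with SHMT2 had 0.32 and 0.22, PHGDH with PSAT1 0.30 and 0.22, and DDIT3 with PHGDH 0.25 in each library. ATF5 with PHGDH had 0.31 and 0.17, and PHGDH with SARS1 0.29 and 0.12. PHGDH was thus part of each of these pairs. PSPH, of the same pathway, had an r of only 0.05 and 0.01 with the stress factors. Of stress factors too sparse to be paired, CEBPB had an r of 0.58 and 0.24 with the other stress factors, ATF3 of 0.50 and 0.32. TRIB3 had 0.48 and 0.22, beside 0.40 and 0.33 for DDIT3. Lower values stood for SESN2 (0.32 and 0.18), CHAC1 (0.25 and 0.18), HRK (0.24 and 0.16) and GDF15 (0.13 and 0.04). The 91 pairs of tRNA charging genes had a median of only 0.03 in each library, and their highest values were 0.11 (TARS1 with YARS1) and 0.09 (GARS1 with XPOT). Counts were spread more widely than counting noise, for which the variance over the mean is 1, in PHGDH (2.05 and 1.82), ATF3 (2.57 and 2.51), DDIT3 (1.48 and 1.41) and MTHFD2 (1.52 and 1.40), and close to it in PSPH (1.05 and 1.01) and VARS1 (0.95 and 1.03). In thinned cells, a UMI of DDIT3 was present in 16.0% of cells in the library labelled WT against 10.1% in the library labelled FKO, and a UMI of PYCR1 in 11.4% against 7.72%. GDF15 had a value of variance over mean of 21.3 in the library labelled WT, where 1 thinned cell held 26 UMIs.

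**Figure D3:**
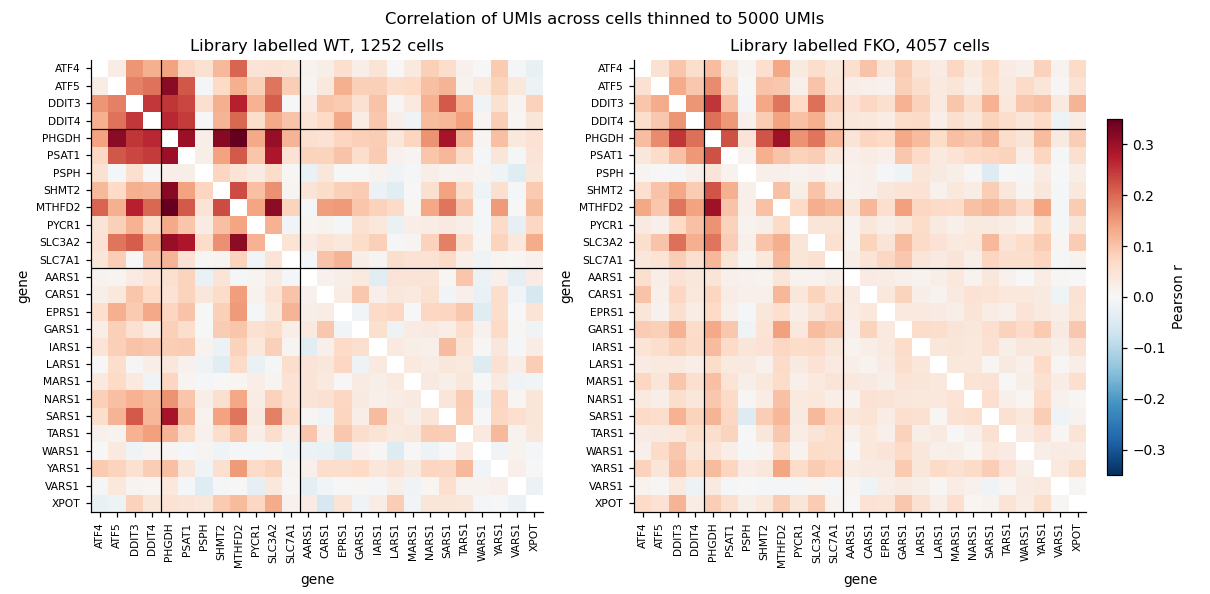
Pearson r between UMIs of 26 genes across 1252 cells (library labelled WT) and 4057 cells (library labelled FKO), each thinned to 5000 UMIs; black lines part stress factors, amino acid genes and tRNA charging genes. Red cells gather where DDIT3, PHGDH, PSAT1, SHMT2, MTHFD2 and SLC3A2 cross, with PHGDH and MTHFD2 at 0.35 and 0.30, while the block of tRNA charging genes stays pale.

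The same cells were then sorted by their UMIs over the 10 stress factors other than ATF4. In the library labelled WT, 713 cells had 0 such UMIs, 380 had 1, 94 had 2, 42 had 3 to 5 and 23 had 6 or more, and in the library labelled FKO 2526, 1069, 285, 123 and 54. Cells with 3 or more made up 5.19% (4.03 to 6.57) and 4.36% (3.76 to 5.04) of cells and held 43.5% and 35.3% of these UMIs. The intervals of the shares count cells within 1 library each and do not compare the groups. These cells also held 21.7% and 16.0% of the UMIs of the amino acid genes, and 8.50% and 7.49% of those of the tRNA charging genes.

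The amino acid genes differed by less than 1.5-fold up to 2 stress UMIs and stood far higher above that. In the library labelled WT they stood at 200 CPM (185 to 215) with 0, 239 with 1, 255 with 2, 838 (719 to 971) with 3 to 5 and 1565 (1345 to 1811) with 6 or more. In the library labelled FKO the values were 227 (219 to 235), 249, 312, 784 (715 to 857) and 1496 CPM (1354 to 1650). The tRNA charging genes went from 927 (895 to 959) to 2183 CPM (1921 to 2470) and from 1158 (1139 to 1177) to 2822 CPM (2625 to 3030). From the lowest to the highest bin this was 7.84-fold (6.62 to 9.24) and 6.60-fold (5.93 to 7.32) for amino acid genes, and 2.36-fold (2.06 to 2.68) and 2.44-fold (2.26 to 2.62) for tRNA charging genes. The other cytosolic synthetases and partners were at 1.02-fold (0.78 to 1.31) and 1.12-fold (0.95 to 1.32), and the mitochondrial synthetases at 1-fold (0.68 to 1.43) and 0.92-fold (0.73 to 1.15). In both libraries the synthetases of the list thus differed more between these bins than those outside it. The lists were chosen with earlier results of these data known, so this split is a description and not an independent check. In the library labelled FKO, the other cytosolic synthetases and partners were not flat in every setting. With ATF4 counted among the stress factors they were at 1.22-fold (1.07 to 1.40), beside 2.39-fold for the tRNA charging genes. In cells of 10000 to 20000 UMIs they were at 1.15-fold (1.03 to 1.29), beside 1.89-fold. Those cells were thinned to 10000 UMIs and sorted by the same bins, so 6 or more stress UMIs are a smaller share of a cell there. The highest bin of the library labelled WT was small, at 23 cells, and the bin of 3 to 5 already stood at 838 and 1310 CPM for the amino acid and tRNA charging genes.

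**Figure D4:**
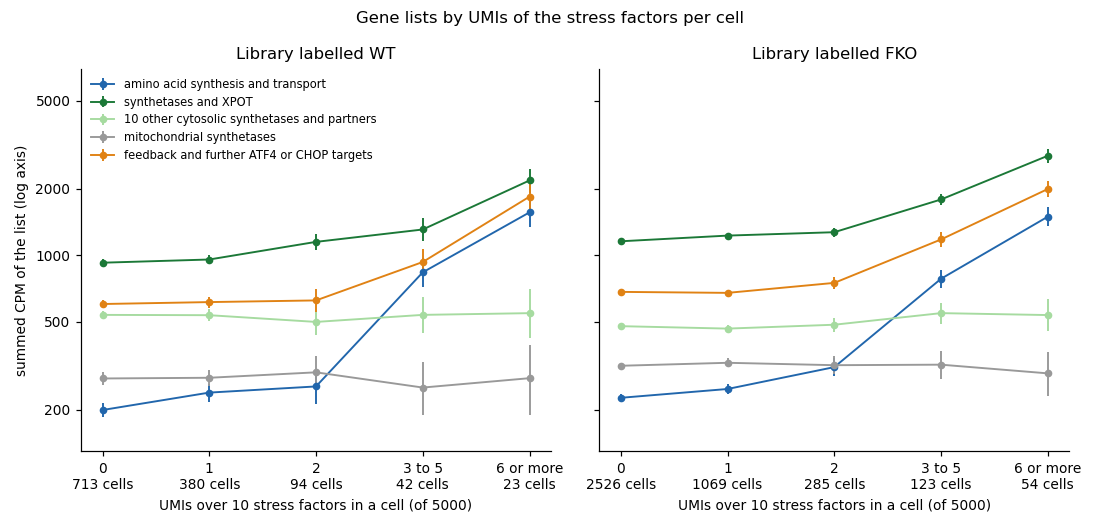
Summed CPM (log axis) of 5 gene lists in cells thinned to 5000 UMIs, by the cell's UMIs over 10 stress factors, in each library; bars are exact 95% Poisson intervals and cell numbers stand under each bin. The amino acid genes go from 200 to 1565 CPM and from 227 to 1496 CPM, while the other cytosolic synthetases stay at 538 and 548 CPM and at 478 and 537 CPM.

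Gene by gene, those with at least 20 UMIs in the bin of 0 in both libraries were compared between the bins of 6 or more and of 0. Of 9880 such genes other than the 10 stress factors, 18.2% were more than 1.5-fold higher in the library labelled WT, 16% in the library labelled FKO and 5.14% in both. Of 10 amino acid genes, 9 were more than 1.5-fold higher in the library labelled WT, 8 in the library labelled FKO and 8 in both. PHGDH went from 9.54 to 304 CPM, 31.9-fold (19.3 to 52.7), in the library labelled WT and from 9.66 to 259 CPM, 26.8-fold (19.7 to 36.3), in the library labelled FKO. MTHFD2 had ratios of 15.1 (8.53 to 26.1) and 8.89 (6.83 to 11.4), PSAT1 of 13.7 (7.54 to 24.0) and 9.42 (6.19 to 13.9), and SHMT2 of 11.5 (6.07 to 20.9) and 9.28 (5.72 to 14.5). Among carriers, SLC3A2, whose promoter is shown above, had ratios of 5.64 (4.16 to 7.51) and 5.42 (4.37 to 6.67). ALDH18A1 had 0 UMIs in the highest bin of the library labelled WT, which allows a ratio of up to 3.79, and a ratio of 0.93 (0.25 to 2.42) in the library labelled FKO. PSPH, the last step of serine synthesis, had ratios of 1.63 (0.33 to 5.01) and 1.26 (0.41 to 3), and both intervals held 1.

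Of the 14 tRNA charging genes, 10 were more than 1.5-fold higher in the library labelled WT, against 14 in the library labelled FKO, where the bin was larger, and 10 in both. The interval lay above 1 for 8 and 13 of them, beside 3.28% and 8.11% of all 9880 genes. XPOT had the highest ratio in both, 5.17 (2.11 to 11) and 5.22 (3.50 to 7.53). SARS1 had ratios of 2.95 (2.22 to 3.85) and 2.53 (2.10 to 3.03), TARS1 of 3.18 (2.06 to 4.74) and 2.11 (1.56 to 2.80), and IARS1 of 2.70 (1.44 to 4.66) and 3.16 (2.33 to 4.20). VARS1 had ratios of 0.61 (0.02 to 3.54) and 1.59 (0.76 to 2.97), and both of its intervals held 1. Of the 10 other cytosolic synthetases and partners, 0 were more than 1.5-fold higher in the library labelled WT against 2 in the library labelled FKO, AIMP2 (3.57, 1.67 to 6.78) and AIMP1 (1.78, 1.18 to 2.57). Both encode scaffold proteins of the multi-synthetase complex and not synthetases.

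**Figure D5:**
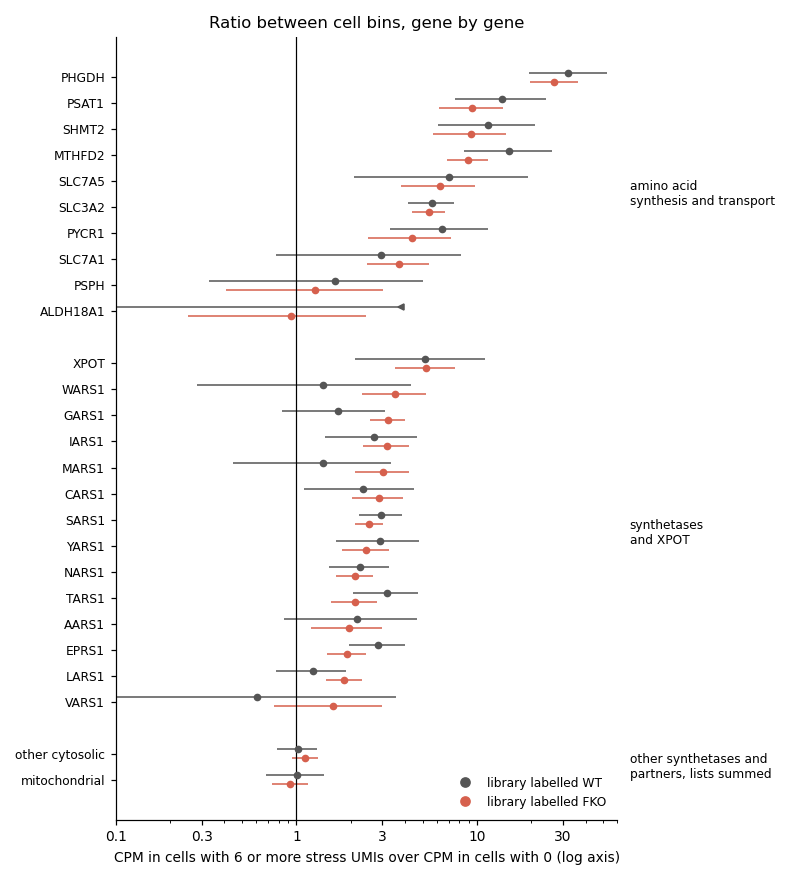
CPM in cells with 6 or more stress UMIs over CPM in cells with 0 (log axis) for each gene with at least 20 UMIs in the latter and for 2 lists summed, in the libraries labelled WT (grey) and FKO (red), with exact 95% counting intervals; an arrow marks the upper limit of a gene with 0 UMIs in the highest bin. PHGDH leads at 31.9 and 26.8, XPOT stands at 5.17 and 5.22, and the other cytosolic synthetases as a list at 1.02 and 1.12.

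Of the 19 feedback genes and further targets, 13 had enough UMIs, and 8 were more than 1.5-fold higher in the library labelled WT, 11 in the library labelled FKO and 8 in both; the lowest ratios were 0 and 0.755. The genes named next were chosen after their values were seen. BBC3, a pro-apoptotic target of CHOP and p53, had ratios of 8.76 (4.34 to 16.5) and 5.74 (3.66 to 8.64), PPP1R15A of 4.68 (3 to 7.03) and 3.59 (2.67 to 4.74), CEBPG, a partner of ATF4, of 4.88 (2.74 to 8.18) and 3.10 (2.18 to 4.29), and EIF4EBP1 of 4.02 (2.92 to 5.42) and 4.22 (3.26 to 5.39). As a list, the 19 were 3.06-fold (2.64 to 3.52) and 2.92-fold (2.67 to 3.19) higher. Chaperones and other genes of the unfolded protein response were at 1.12-fold (0.97 to 1.28) in the library labelled WT against 2.14-fold (2.01 to 2.27) in the library labelled FKO. The chaperone HSPA5 alone had ratios of 1.23 (0.745 to 1.92) and 2.31 (1.87 to 2.82). HERPUD1 (4.69 and 5.42) and XBP1 (4.77 and 6.14) were higher in both. Whether the libraries differ in this had no replicate check.

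Some cell markers differed with the bins. Serotonergic genes went from 3241 to 2113 CPM and from 2727 to 1430 CPM. TPH2 itself stood at 222, 229, 251, 252 and 157 CPM (92.8 to 247 in the highest bin) in the library labelled WT and at 178, 168, 193, 125 and 141 CPM (99.6 to 193) in the library labelled FKO, so that both intervals of the highest bin held the value at 0. A TPH2 UMI was present in 30.4% and 27.8% of cells in the highest bin, 54.8% and 30.9% of cells with 3 to 5 and 49.8% and 45.9% of cells with 0 stress UMIs. The share of such UMIs that came from outside the cell was not measured. Pan-neuronal genes went from 9028 to 6339 CPM and from 13696 to 8326 CPM. Floor plate genes went from 38.7 to 17.4 CPM and from 36.3 to 14.8 CPM, with only 2 and 4 UMIs in the highest bin and intervals of the ratio that held 1. Neural progenitor genes stood at 318 and 270 CPM at 0 and in the highest bin of the library labelled WT, and at 177 and 278 CPM in the library labelled FKO. Mesenchymal genes stood at 15.4 and 26.1 CPM in the library labelled WT but went from 70.9 to 2004 CPM in the library labelled FKO. Only 4 of the 54 cells in that bin had at least 3 mesenchymal UMIs. Without all such cells, an alternative added after seeing the data, the log2 ratio of the amino acid genes was 2.72 (2.72 with them) and that of the tRNA charging genes 1.30 (1.29 with them). In cells of 10000 to 20000 UMIs, with 111 and 66 cells in the highest bin, more marker lists differed, and the direction of floor plate genes was reversed: they were 6.90-fold (5.64 to 8.42) and 1.72-fold (1.30 to 2.25) higher than at 0, mesenchymal genes 4.64-fold (3.50 to 6.09) and 39.4-fold (34.5 to 45.2), neural progenitor genes 1.54-fold (1.39 to 1.71) and 2.22-fold (1.94 to 2.53), and astroglial genes 3.35-fold (2.07 to 5.23) and 2.03-fold (1.52 to 2.68). That window was thinned to 10000 UMIs with the bins at the same counts, so its bins are not like those of the main window. The part of these markers and of the unlike bins in the results of that window was not tested. Immediate early genes were 2.98-fold (2.56 to 3.46) and 2.22-fold (1.97 to 2.49) higher in the highest bin, with JUN at 8.54 and 3.35, and heat shock genes were at 0.92-fold (0.83 to 1.01) and 0.89-fold (0.83 to 0.95). The p53 targets were at 1.59-fold (1.06 to 2.31) and 1.71-fold (1.38 to 2.10), sensors and eIF2 factors at 1.32-fold (1.09 to 1.58) and 1.42-fold (1.28 to 1.58), one-carbon and serine genes outside the 38 at 2.53-fold (1.54 to 3.96) and 1.09-fold (0.75 to 1.53), and other amino acid transporters at 1.22-fold (0.85 to 1.68) and 1.32-fold (1.15 to 1.52). In cells of 10000 to 20000 UMIs the one-carbon and serine genes outside the 38 were at 1.06-fold (0.85 to 1.31) and 1.55-fold (1.27 to 1.89). The library whose interval lay above 1 was thus the other one in that window. The median mitochondrial share was 6.80% in the highest bin against 7.83% at 0 in the library labelled WT. In the library labelled FKO it was 5.25% against 5.35%.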

How the data were processed

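The authors' deposited tables held raw UMI counts per gene and barcode, made with Cell Ranger (7.1.0 per the file headers, 7.0 per the labels) on GRCh38; the annotation is not given in the sources used here. Kept barcodes had 1000 or more UMIs, 500 or more genes and no more than 10% of UMIs from mitochondrial genes. Scrublet, run in scanpy 1.11.5, marked only 1 barcode per library at its own threshold, so the highest scores were removed at 0.8% per 1000 barcodes. Counts were summed over kept cells and divided by the library's kept UMIs (CPM), without a pseudocount. Python 3.11.15, numpy 2.4.6, scipy 1.17.1, pandas 2.3.3 and matplotlib 3.10.9 were used. Intervals are exact: Poisson for CPM, Clopper-Pearson for shares, and for ratios the binomial one given the sum of both counts.

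Correlations and bins used cells of 5000 to 10000 UMIs thinned without replacement. Full values are given for genes past 1.5-fold and for the 2 of each group nearest to the median of all genes, and for each comparison list the 2 highest and 2 lowest, of which some are not reported here; genes named outside this rule are said to be so or given in brief. The genes and lists were chosen with earlier results of these data known. The calculations were tested on simulated data. Alternatives changed the filters, weighting, depth, cell classes and CPM minimum.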

Additional observations from a re-analysis of the deposited data

How the results depend on the processing

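With 1 library per group none was left out. No paired analysis was possible because each group had 1 library. Where still compared, none of the 7 genes past 1.5-fold crossed the median of all genes under any of the 12 alternatives, and none of the 6 correlations changed sign under the 7 tried for them; the cause of the shifts below was not tested unless stated.

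With at most 5% mitochondrial UMIs, the medians were -1.83 (stress factors), -1.39 (amino acid genes) and -0.27 (tRNA charging genes). There 21 of 36 genes lay below (beside 26.8% of all genes) and 0 above (beside 23.6%). With 5% to 10%, chosen after seeing the data, the amino acid median was -0.20. In that range 3 of 31 lay below (beside 22.3% of all genes) and 2 above (beside 17.3%). Doublets kept, or only cells with a TPH2 UMI, gave 2 of 31 above, beside 18.0% and 19.0% of all genes. In cells of 5000 to 10000 UMIs the medians were -0.35, -0.58 and, reversed, 0.0548. At a minimum of 50 CPM the median of all genes was 0.31 and only 1 stress factor was left, at 0.0613, which is ATF4 and not a median. Of the 12 genes left 0 were above (beside 21.1% of all genes) and 0 below (beside 26.5%). There DDIT3, PHGDH, SHMT2, PYCR1 and SLC7A1 fell under the minimum, and SLC3A2 (-0.46) and SARS1 (-0.43) lay inside the limit. At a minimum of 2 CPM the median of all genes was 0.55.

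In cells of 10000 to 20000 UMIs, the log2 ratios between bins were 2.41 and 2.31 for amino acid genes and 0.76 and 0.92 for tRNA charging genes, in the libraries labelled WT and FKO. These cells were thinned to 10000 UMIs with the bins at the same counts, so the bins are not like those of the main window. In that window r was 0.57 and 0.61 (stress with amino acid), and in the library labelled FKO 0.45 (stress with tRNA charging) and 0.53 (amino acid with tRNA charging). Without cells of 6 or more stress UMIs, added after seeing the data, r was 0.34 and 0.27, 0.17 and 0.21, and 0.25 and 0.29 in that order of pairs. Without the most abundant gene of each group (ATF4, SLC3A2 and SARS1), r was 0.27 for stress with tRNA charging in the library labelled WT, and 0.41, 0.30 and 0.34 in the library labelled FKO. With mean z-scores it was 0.40, 0.30 and 0.31 there. With at most 5% mitochondrial UMIs, r was 0.48 for stress with amino acid in the library labelled FKO and 0.46 for amino acid with tRNA charging in the library labelled WT. Genes with few UMIs per cell, such as ASNS and GDF15, limit what depth can show.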
